A study of Mus musculus with 3 samples.

Results

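The 10 genes described here are 7 immediate early genes, *Fos*, *Fosb*, *Jun*, *Junb*, *Egr1*, *Ier2* and *Atf3*, and 3 heat shock genes, *Hspa1a*, *Hspa1b* and *Dnajb1*. They were chosen by name, as genes that can gauge how cells respond to being dissociated, and all 10 were present among the 27755 genes counted in the D10 culture and the E14.5 tail and among the 25936 genes counted in D6 PM. Single cells were profiled in 3 libraries, with 1 library for each group, so that no test between groups was possible and no p-value is given. The D10 culture was a monolayer grown from mouse embryonic stem cells that carry the ScxGFP reporter, in which green fluorescent protein marks cells that express the tendon gene *Scx*. These cells formed embryoid bodies with the BMP inhibitor LDN-193189, were taken to paraxial mesoderm with the Wnt agonist CHIR and LDN-193189, and then received TGFβ1, the Hedgehog agonist SAG and FGF2. D6 PM was a culture of the same protocol at the end of the paraxial mesoderm step, before TGFβ1, SAG and FGF2. Whether it came from the same cell line or the same run as the D10 culture is not said in the sources used here. The stem cells had been kept on fibroblast feeders. The E14.5 tail was cut from mouse embryos with the same reporter, and the sources used here do not say how many embryos were pooled. Every suspension was made with trypsin and collagenase and then depleted of dying cells that bind Annexin V. Because tissue, preparation and library change together, a difference between the living cells and a difference arising during dissociation cannot be told apart in these data.

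Immediate early genes are transcribed within minutes of a stimulus, without new protein synthesis, from promoters whose activators already sit in the cell. FOS and FOSB pair with JUN and JUNB to form the transcription factor AP-1, EGR1 is a zinc finger factor downstream of serum response factor, IER2 is a short nuclear protein, and ATF3 is a stress-induced factor of the ATF/CREB family. HSPA1A and HSPA1B are near-identical inducible HSP70 chaperones made when heat shock factor 1 is activated, and DNAJB1 is an HSP40 co-chaperone that stimulates HSP70. Both groups of genes are known to rise while tissue is digested by enzymes at warm temperature, and AP-1 and EGR1 also act in development and in the response of tendon cells to load.

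The 250 bases before the start of transcription are shown for *Fos*, which differed widely between the libraries, for its partner *Jun*, and for the HSP70 pair. They were taken from RefSeq on GRCm38.p6 and are printed along each gene's own strand, with matches to 3 motifs in capitals. The motifs were TGACG, which is 1 arm of the site that CREB and ATF factors bind, TATAAA, the TATA box, and GAANNTTC, the core of the heat shock element. *Fos* lies at chr12:85473640-85473889 on the plus strand, *Jun* at chr4:95052223-95052472, *Hspa1a* at chr17:34972157-34972406 and *Hspa1b* at chr17:34959239-34959488, all 3 on the minus strand.
Fos: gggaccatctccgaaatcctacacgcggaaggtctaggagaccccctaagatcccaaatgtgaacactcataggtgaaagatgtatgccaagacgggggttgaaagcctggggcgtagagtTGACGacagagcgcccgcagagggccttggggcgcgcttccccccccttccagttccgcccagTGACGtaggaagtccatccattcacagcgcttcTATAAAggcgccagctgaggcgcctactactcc
Jun: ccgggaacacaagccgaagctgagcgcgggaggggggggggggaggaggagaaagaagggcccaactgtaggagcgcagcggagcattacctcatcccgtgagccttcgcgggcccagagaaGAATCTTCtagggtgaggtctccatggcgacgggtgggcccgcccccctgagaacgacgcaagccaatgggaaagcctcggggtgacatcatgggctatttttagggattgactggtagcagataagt
Hspa1a: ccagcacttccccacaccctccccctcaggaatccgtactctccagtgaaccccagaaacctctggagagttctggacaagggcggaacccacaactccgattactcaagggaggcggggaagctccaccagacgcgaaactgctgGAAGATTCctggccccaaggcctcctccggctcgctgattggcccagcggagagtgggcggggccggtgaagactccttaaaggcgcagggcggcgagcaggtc
Hspa1b: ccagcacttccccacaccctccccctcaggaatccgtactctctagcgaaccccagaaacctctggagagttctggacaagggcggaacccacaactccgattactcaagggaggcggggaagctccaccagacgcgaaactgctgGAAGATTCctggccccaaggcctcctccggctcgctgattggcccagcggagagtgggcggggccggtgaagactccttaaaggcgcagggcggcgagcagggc

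*Fos* held TGACG at 129 and at 66 bases before the start and TATAAA at 33 bases before it. *Jun* held GAANNTTC at 128 bases before its start. *Hspa1a* and *Hspa1b* both held GAANNTTC at 104 bases before the start, and their windows differed at only 3 of 250 positions. On either strand, GAANNTTC occurred in 6.69% of the 32851 RefSeq promoter windows of this length, TGACG in 17.8% and TATAAA in 12.4%. *Fosb* and *Junb* also held TGACG on their own strand, at 60 and 106 bases before the start, and *Atf3* and 1 of the RefSeq starts of *Dnajb1* held it on the opposite strand. No CArG box, the site of serum response factor, was found in any of these windows. It was found in 1.47% of all windows. The motif TGANTCA was searched for too, and was found in none of the windows of these genes and in 6.75% of all windows. Only 250 bases were searched for each start, so a site farther upstream could not be seen, and its absence from a gene cannot be read from this. A match is a run of letters and not a measured binding site. Promoters of *Egr1* and *Ier2* are not shown.

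The values are counts of unique molecular identifiers (UMIs), each standing for 1 captured RNA molecule. They were summed over the cells of a deposited cluster code and divided by all UMIs of those cells to give CPM, the counts for each 1000000 UMIs. The culture held 7821 cells, the tail 2052 and D6 PM 5954, with medians of 5622, 13512 and 8171 UMIs per cell. The cell barcodes shared by any pair of libraries numbered 3 to 10. The culture and the tail share a set of integer codes, and D6 PM has a set of its own, so that code 1 of D6 PM is not code 1 of the others. Codes with at least 20 cells numbered 11 in the culture, 13 in the tail and 6 in D6 PM. All intervals are exact 95% intervals for counting error only, since cells of 1 library are not replicates.

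Of the codes that hold most of the tendon and cartilage cells, code 1 had 6 of 8 tendon markers at 50 CPM or more in the culture and in the tail, code 2 had the same number and was led by genes of dividing cells such as *Mxd3* and *Hist1h1b*, and code 4 had 5 of 6 cartilage markers in the culture and 6 of 6 in the tail. None of the tendon markers was among the 10 leading genes of code 1 in either library, and the smooth muscle gene *Myh11* led code 1 of the tail, so that these cells are compared by code. Several other codes did not hold like cells in both libraries. Code 3 had 6 of 6 pluripotency markers in the culture and 4 of 4 skin markers in the tail, where its leading genes held *S100a8*, *S100a9* and *Stfa1*, known from neutrophils, and the immune markers *Lyz2* and *Tyrobp* stood at 119 and 64.2 CPM. Code 8 had endodermal and epithelial markers in the culture, and skin and epithelial markers in the tail. Code 6 was led by haemoglobin genes in both but had 6 of 6 pluripotency markers in the culture. Code 5 of the tail was muscle-like, with 5 of 5 markers, while code 5 of the culture had 3 muscle and 5 pluripotency markers. Code 9 had immune and fibroblast markers together, code 11 was endothelial-like in both libraries, and code 7, at medians of 1424 and 1881 UMIs per cell, was left unnamed.

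In codes 1, 2 and 4, *Fos* and *Fosb* were the members that separated the tail from the culture most widely. *Fos* stood at 27.3 CPM (24.8 to 29.9, 453 UMIs) in code 1 of the culture and at 889 CPM (871 to 907, 8999 UMIs) in code 1 of the tail, a ratio of 32.5 (29.6 to 35.9). It stood at 26 against 653 CPM in code 2, and at 30.1 against 551 CPM in code 4. The culture was thus low and even across these codes, and the tail was high in each of them, with ratios of 25.2 (22.2 to 28.6) in code 2 and 18.3 (15 to 22.6) in code 4. *Fosb*, the paralog of *Fos* and the other FOS partner of JUN measured here, stood at 6.57 against 298 CPM in code 1, 8.22 against 235 CPM in code 2 and 8.42 against 184 CPM in code 4. Its ratios were 45.3 (37.4 to 55.3), 28.6 (23 to 36) and 21.9 (15 to 33.2).

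Their JUN partners were already present in the culture and differed less. *Jun* stood at 269 CPM (261 to 277) in code 1 of the culture and at 965 CPM (946 to 985) in the tail, a ratio of 3.59 (3.47 to 3.72). In code 2 it stood at 260 against 814 CPM, a ratio of 3.13 (2.97 to 3.29), and in code 4 at 270 against 506 CPM, where the ratio of 1.88 (1.73 to 2.04) stayed under 2. *Junb* stood at 43.8 against 135 CPM in code 1, 40 against 93.5 CPM in code 2 and 51.1 against 175 CPM in code 4. Its ratios were 3.07 (2.8 to 3.36), 2.34 (2.04 to 2.69) and 3.42 (2.88 to 4.09), so that the AP-1 genes of both families were higher in the tail, and the FOS family by far the more.

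*Egr1*, the zinc finger factor, lay between these families. It stood at 71.2 against 436 CPM in code 1, 60.5 against 386 CPM in code 2 and 45.7 against 386 CPM in code 4, with ratios of 6.12 (5.74 to 6.53), 6.38 (5.82 to 6.99) and 8.45 (7.14 to 10.1). *Ier2* differed least of the 7 immediate early genes in codes 1 and 2. It stood at 180 against 326 CPM in code 1, 191 against 296 CPM in code 2 and 251 against 548 CPM in code 4, and only code 4 passed 2-fold, at 2.18 (2.01 to 2.37). *Atf3* was low everywhere in these codes. Its 54 UMIs in code 1 of the culture gave 3.25 CPM and its 214 UMIs in the tail gave 21.1 CPM, a ratio of 6.49 (4.8 to 8.92), whereas code 4 held 7 and 9 UMIs and its ratio of 1.29 (0.428 to 4.08) was not distinguishable from 1 at this depth.

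**Figure D1:**
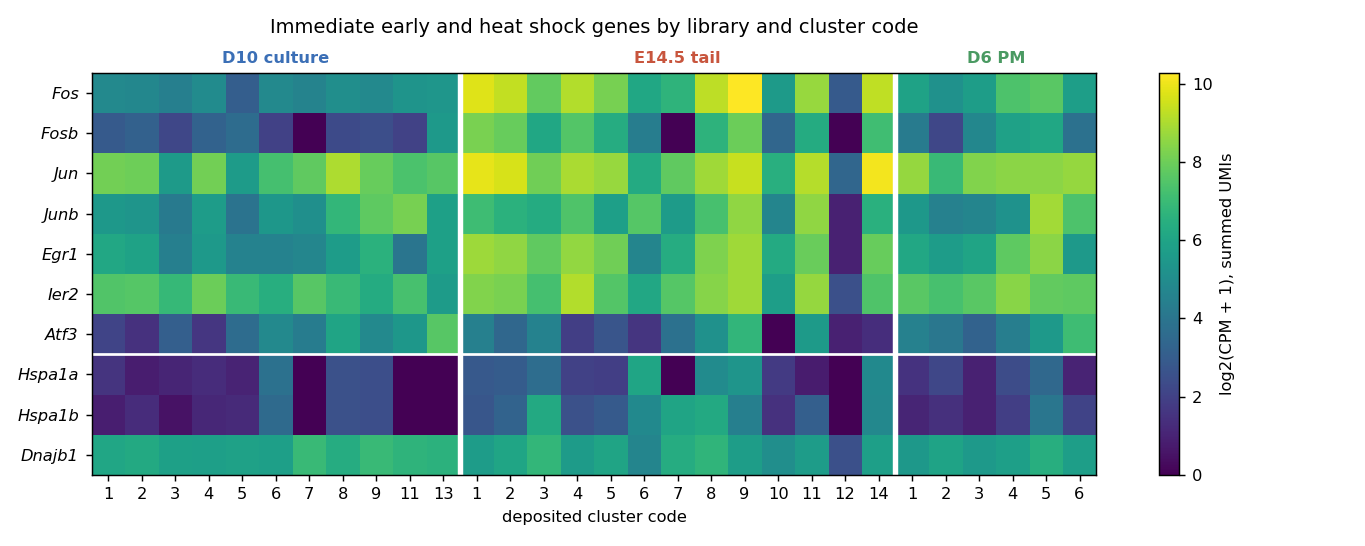
Level of each gene as log2(CPM + 1) of summed UMIs, for each library and deposited cluster code with at least 20 cells. The first 7 rows are the immediate early genes and the last 3 the heat shock genes. The tail is brightest for *Fos*, which reaches 1246 CPM in code 9, and dark in code 12 for all 10 genes.

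The heat shock genes did not move as a block. *Dnajb1* was slightly lower in the tail, at 67.1 CPM (63.3 to 71.2) in the culture and 50.1 CPM (45.8 to 54.6) in the tail in code 1, a ratio of 0.746 (0.67 to 0.829). In code 2 its ratio was 0.861 (0.749 to 0.987), and in code 4, at 0.88 (0.708 to 1.09), the interval included 1. The HSP70 genes were rare in both libraries but higher in the tail. *Hspa1a* had 32 UMIs in code 1 of the culture, or 1.93 CPM, and 63 UMIs in the tail, or 6.22 CPM, and *Hspa1b* had 14 UMIs, or 0.844 CPM, and 59 UMIs, or 5.83 CPM. Their ratios were 3.23 (2.08 to 5.1) and 6.91 (3.81 to 13.4) in code 1, and 9.27 (4.15 to 23.4) and 5.87 (3.2 to 11.3) in code 2. In code 4 the ratio of *Hspa1a* was 2.01 (0.626 to 7.5), on 5 and 10 UMIs, and that of *Hspa1b* 4.02 (1.3 to 16.5), on 4 and 16 UMIs.

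The summed level of the 7 immediate early genes was 601 CPM in code 1 of the culture and 3069 CPM in the tail, a ratio of 5.1 (4.99 to 5.22). It was 4.23 (4.1 to 4.37) in code 2 and 3.57 (3.41 to 3.75) in code 4. The summed level of the 3 heat shock genes, most of which is *Dnajb1*, had ratios of 0.888 (0.805 to 0.98), 1.04 (0.914 to 1.18) and 0.974 (0.792 to 1.2) in the same codes. In codes 1, 2 and 4 the immediate early sum was thus several times higher in the tail while the heat shock sum was close to that of the culture. Among the other codes compared, the immediate early ratio ran from 1.24 (1.1 to 1.41) in code 6 to 5.34 (5.02 to 5.68) in code 5. The heat shock ratio ran from 0.575 (0.382 to 0.884) in code 11 to 3.4 (2.92 to 3.94) in code 3.

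A gene was counted as past 2-fold against a background of genes detected in at least 10% of cells of either group. In code 1, 6 of 7 immediate early genes and 2 of 3 heat shock genes were at least 2-fold higher in the tail, where 13.6% of 10418 background genes were, and none was 2-fold lower, where 5.76% of the background were. In code 2, 6 of 7 and 2 of 3 were higher against 13.6% of the background, and none lower against 5.5%. In code 4, 5 of 7 and 2 of 3 were higher against 13% of the background, and none lower against 4.86%. The call of *Hspa1a* in code 4 ended with CPM averaged over cells, at 1.77, in thinned cells, at 1.78, and without cells under 1000 genes, at 1.998. These counts take in members that did not pass the filter. Every immediate early gene passed the detection filter in codes 1 and 2, and 6 did in code 4. *Hspa1a* and *Hspa1b* passed it only in code 2 of these codes. *Fosb* and *Atf3* in codes 1 and 2, *Hspa1a* and *Hspa1b* in code 2, and *Fos* and *Fosb* in code 4 passed it only through the tail, where they were high, so that the filter itself favoured a higher call for them. Their counts are given as a description. The median ratio of the 7 immediate early genes was 6.12 in code 1, 5.47 in code 2 and 3.42 in code 4, beside medians of 1.15, 1.13 and 1.13 over all background genes.

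**Figure D2:**
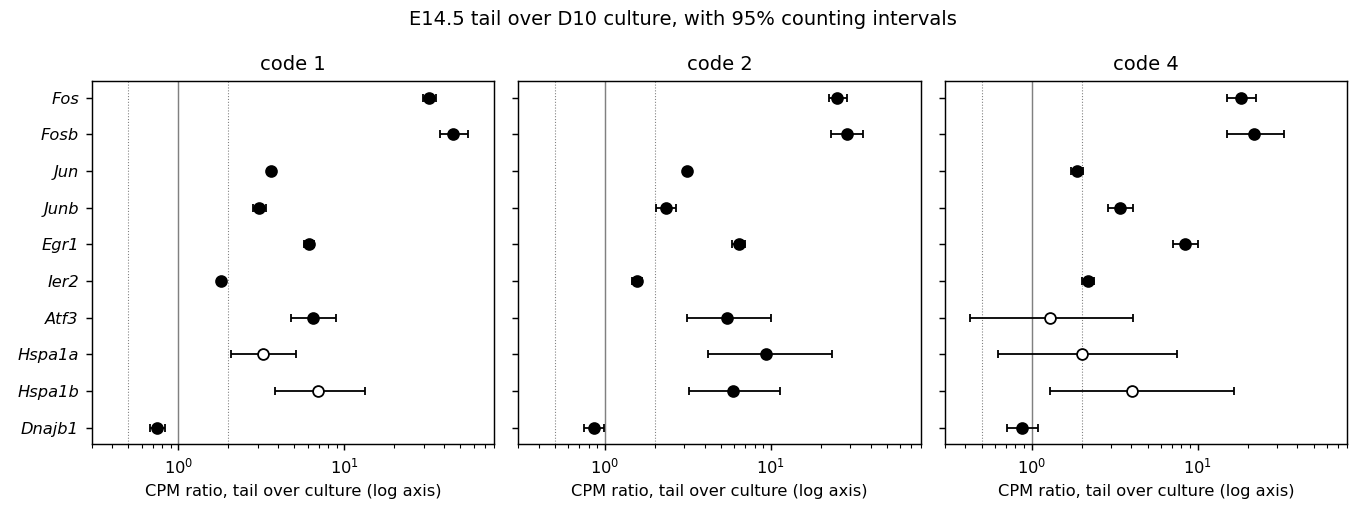
CPM in the E14.5 tail over CPM in the D10 culture for each gene, on a log axis, in codes 1, 2 and 4, with exact 95% counting intervals. Filled points passed the detection filter and open points did not, the solid line marks equality and the dotted lines 2-fold. *Fos* and *Fosb* lie farthest to the right in each panel, and *Dnajb1* at 0.746 to 0.88.

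The remaining codes, several of which hold unlike cells in the 2 libraries, gave the same direction for *Fos* and less uniform values for the rest. *Hspa1b* had a larger ratio than *Fos* and *Fosb* in code 3, and *Egr1* and *Jun* had larger ratios than *Fosb* in code 5. *Fos* was higher in the tail in all 7 of them, from 2.46-fold (1.68 to 3.64) in code 6 to 45.6-fold (26.1 to 88.4) in code 9. Of the 10 genes, 8 were at least 2-fold higher in the tail in code 3 (23.3% of its background), 7 in code 5 (20.5%), 5 in code 6 (2.24%), 3 in code 7 (11.3%), 6 in code 8 (17.1%), 8 in code 9 (28.5%) and 5 in code 11 (15.5%). Members at least 2-fold lower in the tail were *Atf3* in codes 5 and 6, and *Dnajb1* in codes 6, 9 and 11, where 13.4%, 83.9%, 12.4% and 13.9% of the background of codes 5, 6, 9 and 11 were. None was in codes 3, 7 and 8, where 16.9%, 7.76% and 14% were. Several of these calls ended under an alternative. Of the higher ones, *Junb* in code 5 fell to 1.96, *Hspa1a* to 1.92 and *Hspa1b* to 1.79, *Egr1* in code 7 to 1 and *Hspa1b* to 1.48, and *Hspa1b* in code 9 to 1.66. In code 6 *Junb* turned to 0.957 without cells under 1000 genes, and *Hspa1a* and *Hspa1b* rested on 1 cell. Of the lower ones, *Atf3* in code 5 reached 1.03, *Dnajb1* in code 6 reached 1.42 and *Dnajb1* in code 11 reached 0.534. *Hspa1a* and *Hspa1b* in codes 5, 6 and 9 and *Atf3* in code 6 had not passed the filter. Other higher calls were of members that passed it only through the tail, so that the filter itself favoured them. In code 3 these were *Fosb*, *Atf3*, *Hspa1a* and *Hspa1b*. Elsewhere they were *Fos* in codes 5, 6 and 7, *Fosb* in codes 6, 8, 9 and 11 and *Egr1* in codes 7 and 11. *Hspa1b* in codes 7 and 8, *Hspa1a* in code 8 and *Atf3* in code 9 were such members too. *Atf3* in code 5 passed it only through the culture. The counts are given as a description. In code 6 the median over background genes was itself only 0.224, and haemoglobin made up 69.2% of the UMIs of the tail cells. With ratios divided by that median, 9 of the 10 genes were 2-fold higher in code 6, where 18.6% of background genes were, and 1 was lower, where 18.2% were.

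*Atf3* was the immediate early gene with the least uniform pattern across codes. It was at least 2-fold higher in the tail in codes 1, 2, 3 and 9, reaching 109 CPM (95.9 to 122) in code 9. There 26 of 157 tail cells held all 264 UMIs, 59 of them in 1 cell, and without that cell the level was 84.7 CPM. Of the 12 UMIs in code 9 of the culture, 9 were in 1 cell. In code 2 the call, on 19 UMIs in the culture, ended in thinned cells, at 1.44. It was lower in code 5, where 76 UMIs in the culture gave 11.4 CPM and 12 UMIs in the tail gave 5.54 CPM, a call that ended in thinned cells, and in code 6, where 46 UMIs in the culture gave 27.5 CPM and 2 UMIs in the tail gave 1.97 CPM. In the culture it peaked in code 13, at 194 CPM (154 to 242) with a UMI in 30 of 43 cells. That code was led by *Cubn* and *Gkn2*, a scavenger receptor gene of absorptive epithelia and a gastric gene, and carried 4 of 6 endoderm markers. In D6 PM it peaked in code 6, which was endothelial-like with haemoglobin genes, at 137 CPM (121 to 154). The other immediate early genes were not at their highest in either of these codes, apart from *Fos* and *Fosb* in code 13 of the culture and *Jun* in code 6 of D6 PM. In code 13 of the culture *Fos* had 17 UMIs, 6 of them in 1 cell, and *Fosb* had 19 UMIs, 9 of them in 1 cell. The *Fos* interval there overlapped that of code 11, and the *Jun* interval of code 6 of D6 PM overlapped that of code 1.

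Within the tail, the levels of the immediate early genes spanned a wide range between codes. *Fos* was highest in code 9, at 1246 CPM (1202 to 1292), followed by code 1 at 889 CPM and by codes 2, 14 and 8 at 653, 638 and 618 CPM, neighbours whose intervals overlapped. It was 551 CPM in code 4, 416 in code 11, 286 in code 5 and 226 in code 3. It was lowest in codes 7, 6, 10 and 12, at 103, 69, 47.4 and 6.59 CPM. This order rests on haemoglobin in the total, since with haemoglobin left out *Fos* stood at 224 CPM in code 6, above code 7, and at 47.6 CPM in code 12, beside 47.8 CPM in code 10. Code 10 was nerve-like, with 4 of 6 markers, among them *Tubb3* at 1989 CPM, and code 12 was red-blood-like, with haemoglobin at 86.1% of its UMIs. *Jun* had its highest level in code 14, at 1102 CPM (1022 to 1187), a code with the glial genes *Sox10* and *Cdh19* among its leading genes, while *Ier2* had its highest level in code 4, at 548 CPM, and *Junb* in the endothelial-like code 11, at 383 CPM, and in code 9, at 379 CPM. With haemoglobin left out, *Junb* was highest in code 6, at 614 CPM, and stood at 387 CPM in code 11.

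The nerve-like cells of the tail came from the same suspension as code 1, and all of their immediate early genes were lower. Their *Fos* level was 0.0534 times that of code 1 (0.0423 to 0.0665), *Jun* 0.0915 (0.0773 to 0.108), *Egr1* 0.175 (0.146 to 0.209) and *Ier2* 0.162 (0.13 to 0.2), and *Atf3* was not detected in 137 cells. The top cell for each gene held 35 of their 80 *Fos* UMIs, 58 of 149 *Jun* UMIs and 42 of 129 *Egr1* UMIs. Leaving it out lowered *Fos* from 47.4 to 27.1 CPM, *Jun* from 88.3 to 54.9 CPM and *Egr1* from 76.5 to 52.5 CPM. *Dnajb1* differed less, at 0.663 (0.494 to 0.875). The median depth was 11811 UMIs per cell in code 10 and 13463 in code 1. The muscle-like code 5 of the tail was also lower than code 1, with the 7 genes together at 0.42 times its level (0.404 to 0.437).

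The red-blood-like code 12 shows how much of these transcripts was found in cells of the same suspension that should make little of them. Its 128 cells held 25 UMIs of the 7 immediate early genes, 7 of them *Fos* and 10 *Jun*. This came to 23.5 CPM for the 7 genes, 0.00767 times the level of code 1 (0.00496 to 0.0113), and to 170 CPM with haemoglobin left out of the total. *Fosb*, *Hspa1a* and *Hspa1b* had no UMI there, which allows up to 2.82 CPM at 3 counts.

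In the culture, the summed immediate early level and those of *Fos*, *Jun* and *Junb* were lowest in code 3 or code 5, which both had pluripotency markers, code 5 being led by muscle genes such as *Actc1* and *Ttn*. *Egr1*, *Ier2*, *Fosb* and *Atf3* had their lowest levels in other codes. *Jun* stood at 48.1 CPM (44.2 to 52.2) in code 3 and 49.1 CPM (43.9 to 54.7) in code 5, intervals that overlap, against 269 CPM in code 1, and code 3 over code 1 was 0.179 (0.164 to 0.195). *Egr1* and *Junb* were lower in code 3 too, at 0.291 (0.252 to 0.334) and 0.399 (0.34 to 0.466) times code 1. *Fos* was closer, at 0.765 (0.652 to 0.896). *Atf3* went the other way, at 2.38 times code 1 (1.68 to 3.4). In code 5 *Fos*, *Junb* and *Egr1* were at 0.274 (0.2 to 0.368), 0.321 (0.256 to 0.398) and 0.321 (0.27 to 0.381) times code 1. *Atf3* there was 3.49 times code 1 (2.43 to 5.05) and *Fosb* 1.73 times (1.27 to 2.34). These cells were deeper, with a median of 10370 UMIs in code 3 and 4919 in code 1.

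The pluripotency-marked code 2 of D6 PM had the same low position among its codes. Against code 1 of D6 PM, which had 4 of 4 epithelial markers, *Jun* was 0.312-fold (0.295 to 0.329), *Fosb* 0.192-fold (0.136 to 0.264), *Junb* 0.507-fold (0.439 to 0.583) and *Fos* 0.588-fold (0.525 to 0.658). The 7 genes together stood at 408 CPM (397 to 420) there and at 812 CPM (799 to 825) in code 1. *Dnajb1* was higher in code 2, at 1.41-fold (1.28 to 1.57).

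The remaining highs of the culture belonged to other members. Code 8 had the highest *Jun*, at 516 CPM (473 to 562), 1.92 times code 1 (1.75 to 2.1), and 62.4 CPM of *Atf3*. Code 11, which was endothelial-like, had the highest *Junb*, at 291 CPM (236 to 355), 6.64 times code 1 (5.31 to 8.23), and the lowest *Egr1*, on 5 UMIs. Code 9 of the culture, with immune and fibroblast markers, had 214 CPM of *Junb*, 4.89 times code 1 (3.9 to 6.06), and its interval overlapped that of code 11. In the tail the same pair of codes had the highest *Junb*, unless haemoglobin was left out of the total, when code 6 did. In D6 PM the highest were code 5, with fibroblast and immune markers, and the endothelial-like code 6, at 3.88 times code 1 (3.39 to 4.42).

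D6 PM lay between the culture and the tail for 6 of the 7 immediate early genes, while *Atf3*, at 8.84, 25.3 and 22.5 CPM in the culture, D6 PM and the tail, did not. Over whole libraries, *Fos* was 23.6 CPM in the culture, 81.4 in D6 PM and 632 in the tail, *Fosb* was 7, 26.4 and 189 CPM, *Jun* was 190, 314 and 651 CPM, and *Egr1* was 47.7, 114 and 335 CPM. Against the culture, D6 PM had ratios of 3.45 (3.24 to 3.68) for *Fos*, 3.77 (3.36 to 4.24) for *Fosb*, 2.86 (2.57 to 3.18) for *Atf3*, 2.38 (2.27 to 2.49) for *Egr1*, 2.3 (2.18 to 2.42) for *Junb*, 1.65 (1.61 to 1.69) for *Jun* and 1.31 (1.28 to 1.35) for *Ier2*. Thus 5 of the 7 immediate early genes and, among the heat shock genes, *Hspa1b* at 2.3 (1.73 to 3.07), were at least 2-fold higher in D6 PM, where 5.86% of 8845 background genes were, and none was 2-fold lower, where 7.79% were. *Hspa1b* had not passed the detection filter. *Fosb* and *Atf3* passed it only through D6 PM, where they were high, so that the filter itself favoured a higher call for them. The counts are given as a description. The calls of *Junb* and *Egr1* ended with CPM averaged over cells, at 1.85 and 1.97, and that of *Junb* also with thinned cells, at 1.84. *Dnajb1* was 0.828-fold (0.788 to 0.87). Whole libraries mix different cells in different shares, and their part in these ratios cannot be told apart from the level within cells.

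The highest summed levels within D6 PM were in a pair of codes. Code 5, which carried 4 of 5 fibroblast and 3 of 5 immune markers, held 1733 CPM of the 7 genes, and code 4, which had 3 of 6 paraxial mesoderm markers and 3 of 5 muscle markers, held 1198 CPM. The other codes held 408 to 1032 CPM. In code 5 *Junb* was 468 CPM, 10.8 times code 1 (10 to 11.7), *Egr1* was 361 CPM, 5.14 times (4.8 to 5.52), and *Fos* was 201 CPM, 3.33 times (3.07 to 3.62). In code 4 *Egr1* was 3.02 times (2.79 to 3.26), *Fosb* 3.2 times (2.75 to 3.73) and *Fos* 2.78 times (2.55 to 3.03), while *Junb*, at 0.841 (0.721 to 0.977), and *Jun*, at 0.89 (0.848 to 0.934), were slightly under code 1. The codes thus differed in which members were high, with *Junb* high in codes 5 and 6 and not in code 4.

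The depth of the libraries differs, so that the share of cells with a UMI was compared after each cell was thinned to 3000 UMIs, which left out 1157 cells of the culture, 100 of the tail and 1006 of D6 PM. In code 1, *Fos* was then detected in 6.78% of 2595 culture cells (5.84% to 7.82%) and in 58.4% of 678 tail cells (54.6% to 62.1%), and *Jun* in 46.9% (44.9% to 48.8%) and 67% (63.3% to 70.5%). Without thinning the shares were 12.1% and 73.7% for *Fos* and 59.4% and 84.4% for *Jun*. In the red-blood-like code 12 of the tail, which should lack both, *Fos* and *Jun* were each detected in 1.6% of 125 thinned cells (0.194% to 5.66%), at a median depth of 8392 UMIs before thinning. *Dnajb1* was detected in 17% of culture cells (15.5% to 18.5%) and 11.9% of tail cells (9.6% to 14.6%) of code 1, and in 29% and 46.7% without thinning, the opposite order. *Hspa1b* was detected in 0.27% and 1.33% of thinned cells and in 0.472% and 7.3% without thinning.

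The tail cells differed widely among themselves. In code 1 of the tail, the 7 genes together took a median of 18.9 UMIs per 10000, with 1.67 at the 10th percentile of cells and 71.3 at the 90th, while in code 1 of the culture the median was 4.97 and the 90th percentile 13.1. Of the 678 thinned tail cells, 13.7% had none of the 7 genes, where independent detection of each gene at its own share would give 1.81%, and 23.2% had 5 or more. Of the 2595 culture cells, 23.7% had none, where independence would give 21.9%, and 0.154% had 5 or more. Code 4 of the tail had 7.5% of cells with none, where independence would give 2.77%. The tail thus held cells with few of these transcripts next to cells with many.

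**Figure D3:**
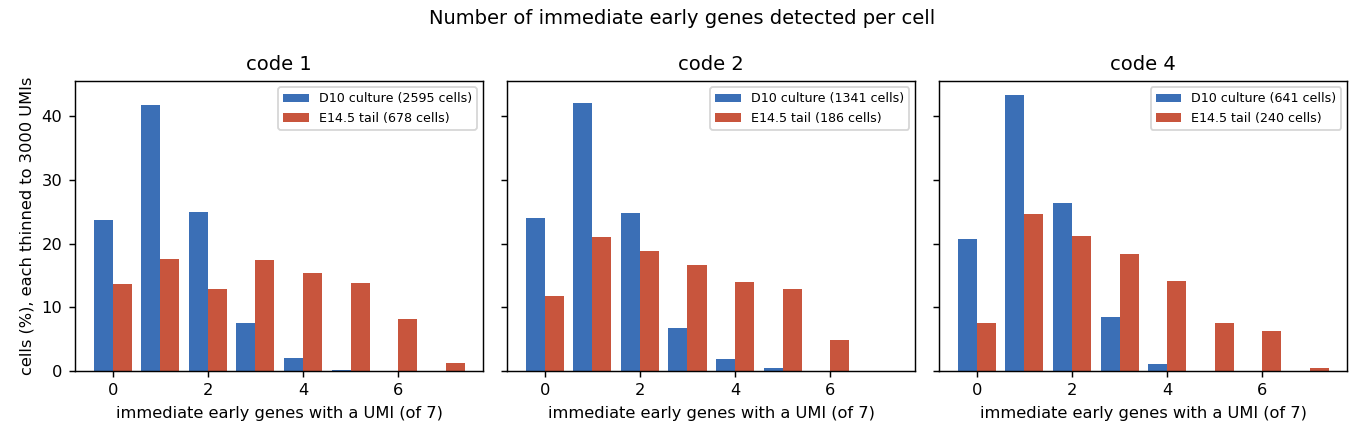
Share of cells by the number of the 7 immediate early genes with a UMI, after thinning each cell to 3000 UMIs, in codes 1, 2 and 4 of the culture and the tail. Culture cells peak at 1 gene, with 41.7% in code 1, and tail cells spread from 0 to 7 genes in codes 1 and 4 and from 0 to 6 in code 2.

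The genes were detected together in the same tail cells. In code 1 of the tail, *Fos* and *Egr1* were both detected in 40.9% of cells (37.1% to 44.7%), where independence would give 28.7%, and *Fos* and *Fosb* in 32.4% (28.9% to 36.1%), where it would give 21.4%. Of the 21 pairs of immediate early genes, 15 had an interval above independence and none below it. In code 1 of the culture 5 of 21 pairs did, and *Fos* and *Egr1* were both detected in 1.73% of cells (1.27% to 2.31%), against 1.03%. The counts of such pairs depend on the level and on the number of cells, which differ between the libraries.

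**Figure D4:**
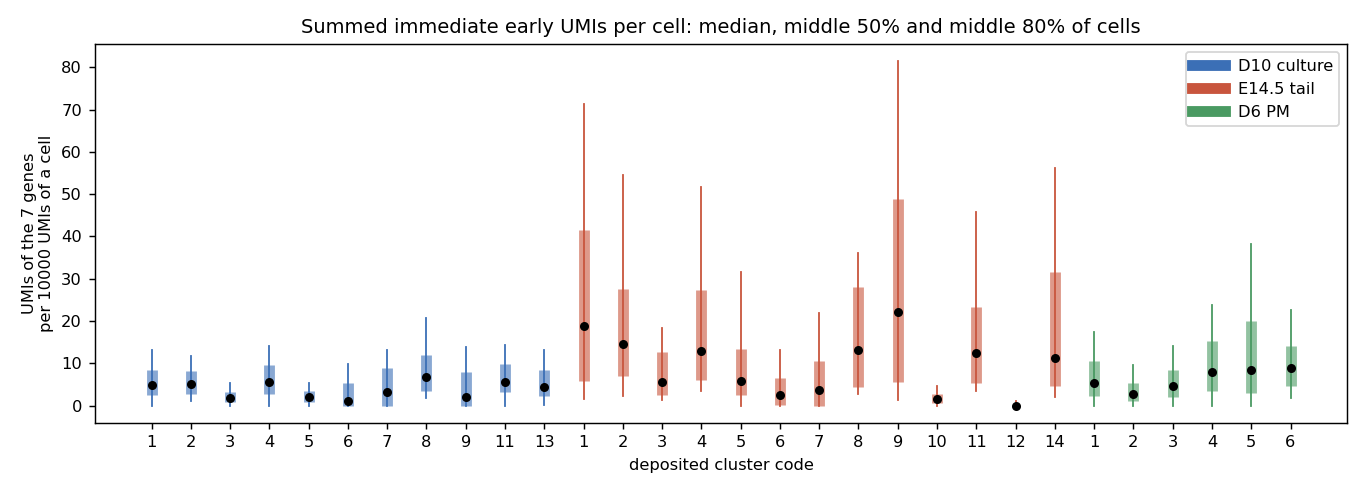
UMIs of the 7 immediate early genes per 10000 UMIs of a cell, for each library and code. Points are medians, thick bars the middle 50% of cells and thin lines the span from the 10th to the 90th percentile. Codes 1 and 9 of the tail reach highest, with medians of 18.9 and 22.1, and codes 10 and 12 of the tail are lowest there, with medians of 1.54 and 0.

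The immediate early level was also read in code 1 by depth and by mitochondrial share. In the tail, the 7 genes stood at 2770, 3230 and 3094 CPM in the shallowest, middle and deepest cells, split into 3 groups of like size, and at 3414, 2853 and 2801 CPM in the cells of low, middle and high mitochondrial share. *Fos* alone stood at 1042 (1011 to 1073), 818 (788 to 849) and 736 CPM (703 to 769) by mitochondrial share, so that it was lower where this share was higher, and the part of mitochondrial share in the level was not tested. In the culture, they stood at 640, 637 and 568 CPM by depth, and at 612, 592 and 599 CPM by mitochondrial share. Each of these groups of tail cells was thus above each of those of culture cells. In code 4 of the tail the groups were less even, at 2150, 1698 and 2900 CPM by depth and 3108, 1691 and 2101 CPM by mitochondrial share. In code 5 of D6 PM the shallowest group, with a median of 1441 UMIs, had 902 CPM and the others 1855 and 1758 CPM.

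The HSP70 genes had their highest levels in the tail outside the tendon codes. *Hspa1b* stood at 74.2 CPM (59.6 to 91.3) in code 3 and 74 CPM (61.8 to 87.9) in code 8, and at 62.8 CPM (34.3 to 105) in code 7. Codes 3 and 8 both had 4 of 4 skin markers, but code 3 was led in part by neutrophil genes, and which of its cells held *Hspa1b* was not tested. It stood at 5.83 CPM in code 1. In code 8 the 129 UMIs were spread over 43 of 82 cells, and in code 3 the 89 UMIs over 24 of 49 cells. *Hspa1a* was 11.7 CPM in code 3 and 30.4 CPM in code 8. In the same codes *Dnajb1* had its highest levels of the tail, at 113 CPM (94.4 to 133) and 104 CPM (89.2 to 120). Against the culture codes of the same number, *Hspa1b* was 174-fold higher in code 3 (71.8 to 549, on 5 and 89 UMIs) and 15.2-fold higher in code 8 (6.34 to 47.5), where the cells compared were unlike.

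Some high HSP70 levels rested on few cells. The highest *Hspa1a* level of all, 65.1 CPM in code 6 of the tail, came from 66 UMIs in 1 cell of 71, and 27 of the 29 *Hspa1b* UMIs of that code were also in 1 cell. Without the cell with most UMIs, *Hspa1a* was at 0 in code 6 of the tail, at most 0.227 times the culture by the floor of 3 counts, and *Hspa1b* was at 0.185 times, so that neither was higher in the tail. In code 9 of the tail, 39 of 98 *Hspa1a* UMIs were in 1 cell, and in code 14 it was 11 of 18. In code 6 of the culture, 5 of 435 cells held all 22 *Hspa1a* UMIs. In D6 PM, code 5 was highest for both, with *Hspa1b* at 15.6 CPM (12.6 to 19.1) on 92 UMIs in 56 cells, 14.2 times code 1 (8.67 to 24.3), and *Hspa1a* at 10.2 CPM (7.76 to 13.1).

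The HSP70 genes share stretches of transcript sequence. Their GENCODE transcripts are 2967 and 2803 bases long and are 91.4% identical where they align, and 58.8% of all 50-base windows of *Hspa1a* also occur in *Hspa1b*, but none of those within the last 500 bases does. Reads that map to several places were ignored in the counts, so that a read lying wholly within a shared stretch would not have been counted for either gene. Summed as 1 gene, the pair had ratios of tail over culture of 4.35 in code 1 and 7.01 in code 2.

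**Figure D5:**
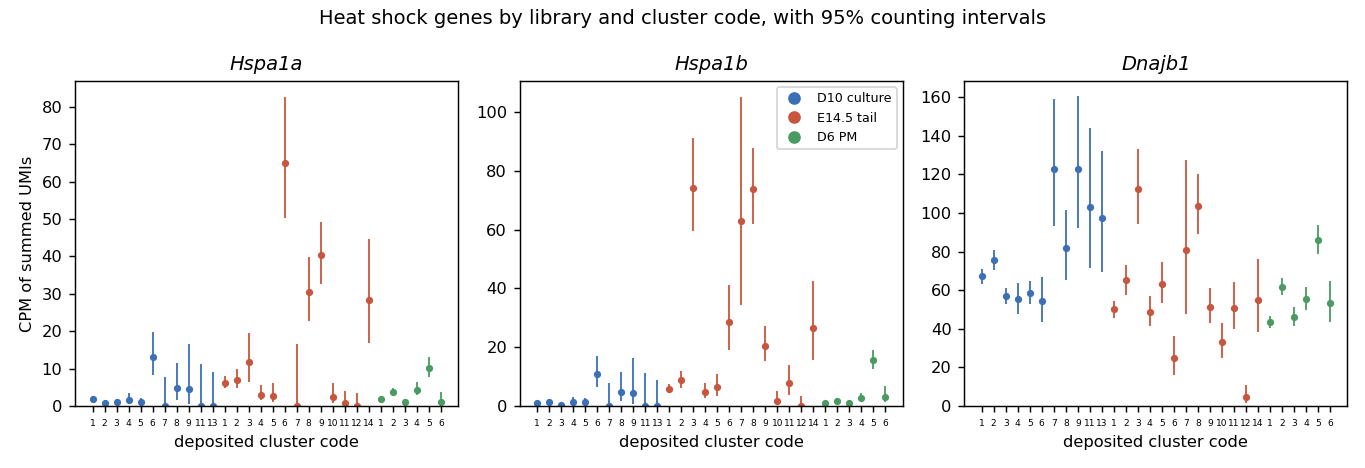
CPM of the 3 heat shock genes by library and cluster code, with exact 95% counting intervals. *Hspa1b* is highest in codes 3 and 8 of the tail, at 74.2 and 74 CPM, *Hspa1a* in code 6 of the tail from 1 cell, and *Dnajb1* varies least between codes.

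Other genes with a like response were read from lists chosen with earlier results of these data known. Of 43 other immediate early genes and their regulators, 34 passed the detection filter in code 1, and 9 of these were at least 2-fold higher in the tail and 7 at least 2-fold lower, with a median ratio of 1.17 beside 1.15 for all background genes. Over the background, 13.6% were higher and 5.76% lower. Those higher included *Dusp1*, a phosphatase that switches off MAP kinases, at 66 against 6.81 CPM, *Klf4*, a zinc finger factor, at 183 against 29.1 CPM, and *Jund*, the other JUN gene, at 1348 against 338 CPM. Those lower included *Ier3*, an early response gene linked to survival, at 34.6 against 296 CPM, *Ctgf*, a matrix-associated target of TGFβ, at 28 against 151 CPM, and *Gadd45b*, a stress gene also induced by TGFβ, at 66.8 against 246 CPM. In code 2, 8 were higher and 6 lower of 34, beside 13.6% and 5.5% of the background. In code 4, 7 were higher and 3 lower of 33, beside 13% and 4.86%, with *Klf2*, another zinc finger factor, at 255 against 22.6 CPM. *Dusp1* in code 1 and *Klf2* in code 4 passed the filter only through the tail, so that the filter itself favoured a higher call for them. The list counts are therefore given as a description.

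Of 26 other chaperone genes and their regulators, 23 passed the filter in code 1, and 1 was at least 2-fold higher in the tail and 1 lower, beside the same 13.6% and 5.76% of the background, with a median ratio of 1.28. The one higher was *Dnaja1*, an HSP40 like *Dnajb1*, at 264 against 109 CPM, a ratio of 2.42 (2.28 to 2.58). In code 2, 2 of 24 were higher and 3 lower, beside 13.6% and 5.5% of the background, and in code 4, 4 of 21 were higher and 1 lower, beside 13% and 4.86%. *Dnaja1* was higher in code 2, at 2.5 (2.3 to 2.71), and in code 4, at 2.89 (2.48 to 3.37), where *Hspa8*, the constitutive HSP70, and *Hsph1*, an HSP110, were both at 2.06. Between D6 PM and the culture, 1 of 27 other immediate early genes that passed the filter was higher and 2 were lower, and none of 23 chaperone genes was 2-fold in either direction, beside 5.86% of the background higher and 7.79% lower. The higher one was *Klf10*, a target of TGFβ, at 60 against 23.5 CPM, and the lower ones were *Ctgf*, at 25.9 against 117 CPM, and *Elk3*, an ETS factor, at 13.3 against 58.4 CPM.

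Across the 30 codes of the 3 libraries, the genes with levels most like those of *Fos* were *Egr1* (Pearson r of log2(CPM + 1) 0.88) and *Fosb* (0.85), followed by *Hoxa11os* (0.83), *Jund* (0.82) and *Nr4a1* (0.81), out of 8694 genes that reached 50 CPM in at least 1 code. For *Egr1* the closest were *Fos*, *Atn1* (0.88), *Zhx1* (0.85), *Jun* (0.84) and *Wdr60* (0.83). For *Hspa1b* they were *Cxcl14* (0.78), *Dsc3* (0.76), *Cebpa* (0.75), *Krt15* (0.74) and *Gm9825* (0.73), none of them a heat shock gene, and *Dsc3* and *Krt15* are known from squamous epithelium. These correlations describe levels only, since codes of 1 library share depth, handling and free RNA.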

How the data were processed

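Single-cell counts of 3 libraries were used, with 1 library for each group, so that cells were not treated as replicates and nothing was tested. The deposited values are raw UMI counts for every gene in every cell, and each cell carries the cluster code given by the authors. Per the labels and the methods of the study, 10x 3′ v3 libraries were processed with Cell Ranger, multi-mapping reads were ignored, and Seurat 3.0 was used. The authors had removed cells above 7.5% mitochondrial transcripts and those in the lowest or highest 2% of transcript number. The genome build of the counts is not given in the sources used here.

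UMIs were summed per code and library and divided by all UMIs to give CPM, in SciPy 1.17.1 and NumPy 2.4.6 under Python 3.11.15. Intervals are exact: Poisson for levels, conditional binomial for ratios and Clopper-Pearson for shares, at 95%. Depth therefore sets their width, and codes of few cells are least precise. A group at 0 was set to 3 counts over the group for a ratio. Codes under 20 cells were left out. Doublets were not called. Cells were thinned with seed 1. Motifs and the *Hspa1a* and *Hspa1b* transcripts were read with Biopython 1.88 from RefSeq GRCm38.p6 and GENCODE M21, and figures were drawn with Matplotlib 3.10.9.

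The members and lists were chosen with earlier results of these data known. All 10 members are named. Of other lists, up to 4 genes in each direction could be named, where the groups together held 100 UMIs or more and the higher group 50 CPM or more. Comparisons between codes of 1 library were chosen after their levels were seen. The 2-fold rule was run on simulated data of codes 1, 2 and 4, with 7007, 8046 and 5842 genes, fewer than in the background. It recovered 200 of 200 genes changed 4-fold in each and called 0 unchanged genes. A 4-fold change lies well past the rule, so this checked the calculation only. It does not tell how often single libraries would differ without a change. Other cell filters, CPM definitions, folds, centrings and thinning depths were tried.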

Additional observations from a re-analysis of the deposited data

Results flagged for a closer look

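*Atf3* differed in opposite directions between codes under the same comparison of tail and culture. It was 6.493-fold (4.8 to 8.92) higher in the tail in code 1 and 0.0718-fold (0.00844 to 0.275) in code 6, and this difference between codes was not tested, since each code has 1 library a group. In code 6 the median over background genes was 0.224, and with mitochondrial, haemoglobin and ribosomal protein genes left out of the total the value of *Atf3* was 0.224.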

How the results depend on the processing

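The counts of members past 2-fold in code 2, and those of higher members in codes 3, 5, 8 and 9, stayed within 1.5 times under every alternative run. At 4-fold, 5 members were higher in the tail in code 1 (5.13% of background genes), 4 in code 4 (3.68%), 3 in code 6 (1.04%) and 3 in code 11 (3.68%), and 0 were higher in D6 PM (1.76%). At 4-fold, 0 were lower in the tail in codes 5, 9 and 11 (5.27%, 5.34% and 4.97%) and 1 in code 6 (56.1%). At 1.5-fold, 1 was lower in code 7 (16.9%) and 1 in code 8 (22.9%). With mitochondrial, haemoglobin and ribosomal protein genes left out of the total, 0 were lower in codes 5 and 11 (12.7% and 13.1% of the background) and 1 in code 6 (31.8%), where *Dnajb1* turned to 1.42. Without the deepest 5% of cells, 0 were lower in code 5 (14.1%) and 1 in code 8 (14.2%). Thinned to 3000 UMIs, 0 were lower in codes 5 and 11 (15.5% and 17.6%), 1 in each of codes 7 and 8 (15% and 17.4%), and 1 was higher in code 7 (15.8%), and *Atf3* in code 5 turned to 1.03. Without cells under 1000 genes, 3 were higher and 1 lower in code 6 (5.98% and 45.2%) and 2 lower in code 7 (8.59%), and in code 6 *Junb*, *Hspa1a* and *Hspa1b* turned to 0.957, 0.655 and 0.518. With ratios divided by the median of all genes, 9 were higher and 1 lower in code 6 (18.6% and 18.2%). An alternative added after seeing the data, leaving out the tail cell with most UMIs, turned *Hspa1a* and *Hspa1b* in code 6 to 0.227 and 0.185. The summed immediate early ratio of code 1 was 4.85 as a mean over cells, 5.23 with the reduced total, 4.88 without the deepest cells and 4.76 thinned. That of code 4 was 3.32 as a mean over cells. That of D6 PM was 1.55, 1.89 and 1.62 as a mean over cells, with the reduced total and thinned, and its heat shock ratio was 0.841 and 0.928 under the first of these and the reduced total. In D6 PM *Junb* fell to 1.84 and *Egr1* to 1.97 under the lowest alternative, and in code 2 *Atf3* to 1.44. In code 1 of the tail *Fos* was detected in 64.9% of cells at 5000 UMIs and 73.7% unthinned, and *Jun* in 75.5% and 84.4%. In the culture *Fos* was detected in 11.5% and 12.1%, and *Jun* in 59.9% and 59.4%. The cause of these changes was not tested. Of 560 alternatives for single members, 481 gave the same direction within counting error, 72 moved and 7 reversed. No paired analysis was possible because each group holds 1 library. *Hspa1a*, *Hspa1b* and *Atf3* had few UMIs in many codes, which limits their values.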
